A study of Mus musculus with 4 samples.

Results

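The collagen chain genes encode the polypeptides that fold in groups of 3 into the collagens of the extracellular matrix. They were taken from the count table by symbol: 43 of 23337 gene rows were named Col, a number, a and a number, and 39 were kept after the transmembrane collagens Col13a1, Col17a1, Col23a1 and Col25a1 were left out. They were 11 fibrillar chains, 6 type IV chains of basement membranes, 9 FACIT chains (fibril-associated collagens with interrupted triple helices), 6 beaded type VI chains and 7 others. Total RNA depleted of ribosomal RNA was sequenced from the cardiac cushions, from which the heart valves develop, of C57BL/6 embryos on embryonic day 14.5. Per the labels, 2 libraries were Wildtype and 2 were Nfatc1Cre;Brg1F/F mutant, a genotype with floxed alleles of Brg1 (symbol Smarca4 in the table), the motor subunit of a chromatin remodeller, and a Cre that acts in the endocardial lineage. The tissue of both groups was isolated by the GFP of a Cre reporter. The labels do not give the Cre and floxed alleles of the wildtype libraries beyond that word, nor how many embryos went into each library. The spread behind every p-value is that of these 4 libraries and may be partly technical.

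A collagen chain winds with its partners into a triple helix because every triplet of its helical part opens with glycine, the one residue small enough to sit in the core. Fibrillar collagens assemble into banded fibrils that carry tension. FACIT chains decorate those fibrils, type IV chains form the sheet-like network under endothelium and around muscle, and type VI chains form beaded filaments close to cells. In the cushions, mesenchymal cells that arise from endocardium lay down a loose matrix that is later sorted into the collagen-rich, proteoglycan-rich and elastic layers of the valve leaflets. The question here was whether transcripts of this matrix differ after Brg1 loss in that lineage.

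The gene structure of the members shows how the types differ before any level is read. The first coding exon of exactly 54 bases in which each glycine codon (GGN) is followed by a pair of other codons without a break is shown for 6 chains, from the GENCODE M21 transcripts on GRCm38. These are Col3a1, the chain of highest level, Col1a1, the chain that differed most between the mutant libraries among the 7 of highest level per kb, Col24a1 and Col5a3, the fibrillar chains of lowest p, and Col9a1 and Col22a1, FACIT chains described below. Capitals mark the GG of each glycine codon, and all are written 5′ to 3′ on the coding strand.
Col3a1: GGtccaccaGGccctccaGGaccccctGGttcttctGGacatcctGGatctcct
Col1a1: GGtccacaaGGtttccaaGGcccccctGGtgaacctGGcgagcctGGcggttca
Col24a1: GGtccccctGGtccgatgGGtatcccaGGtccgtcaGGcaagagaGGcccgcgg
Col5a3: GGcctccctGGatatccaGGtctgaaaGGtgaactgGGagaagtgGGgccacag
Col9a1: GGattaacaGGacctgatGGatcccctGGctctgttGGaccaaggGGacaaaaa
Col22a1: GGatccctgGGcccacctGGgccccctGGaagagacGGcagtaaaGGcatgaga
Each of these exons holds whole triplets, with the glycine codon as its first codon. The Col3a1 exon is exon 6 at chr1:45325360-45325413 on the plus strand, and the Col1a1 exon is exon 8 at chr11:94939904-94939957 on the plus strand. On the plus strand too lie exon 4 of Col24a1 at chr3:145320661-145320714 and exon 11 of Col9a1 at chr1:24202014-24202067, and on the minus strand exon 15 of Col5a3 at chr9:20801068-20801121 and exon 13 of Col22a1 at chr15:71952523-71952576.

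In type IV chains the repeat is interrupted. The coding bases around the first short break that follows a run of at least 6 triplets are shown for Col4a1 and for Col4a5, which has the lowest p among type IV chains, with capitals as above.
Col4a1: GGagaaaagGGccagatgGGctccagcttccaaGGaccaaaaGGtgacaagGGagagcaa
Col4a5: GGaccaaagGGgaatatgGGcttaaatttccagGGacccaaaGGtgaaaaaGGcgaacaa
In both chains 6 bases stand between the end of one run and the glycine codon that opens the next, after 17 triplets in Col4a1 and 18 in Col4a5. Over the whole coding sequence, fibrillar chains had a longest unbroken run of 216 to 344 triplets (median 338), against 39 to 66 (median 43.5) in type IV chains, 32 to 113 in FACIT chains and 37 to 87 in beaded chains. Type IV chains were broken into 23 to 27 runs of at least 3 triplets, and fibrillar chains into 2 to 5. FACIT chains had 2 to 23 such runs and beaded chains 3 to 6. The 7 other chains had 9 to 21, with a longest run of 28 to 75 triplets, so breaks were not particular to type IV. Exons of 54 bases made up 47.0% of the coding exons of fibrillar chains, 25.2% in FACIT chains, 7.80% in beaded chains and 4.05% in type IV chains, against 0.673% over the longest coding sequences of all protein-coding genes. Col24a1 and Col27a1 stood apart from the other fibrillar chains, with runs of 216 and 217 triplets.

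**Figure D1:**
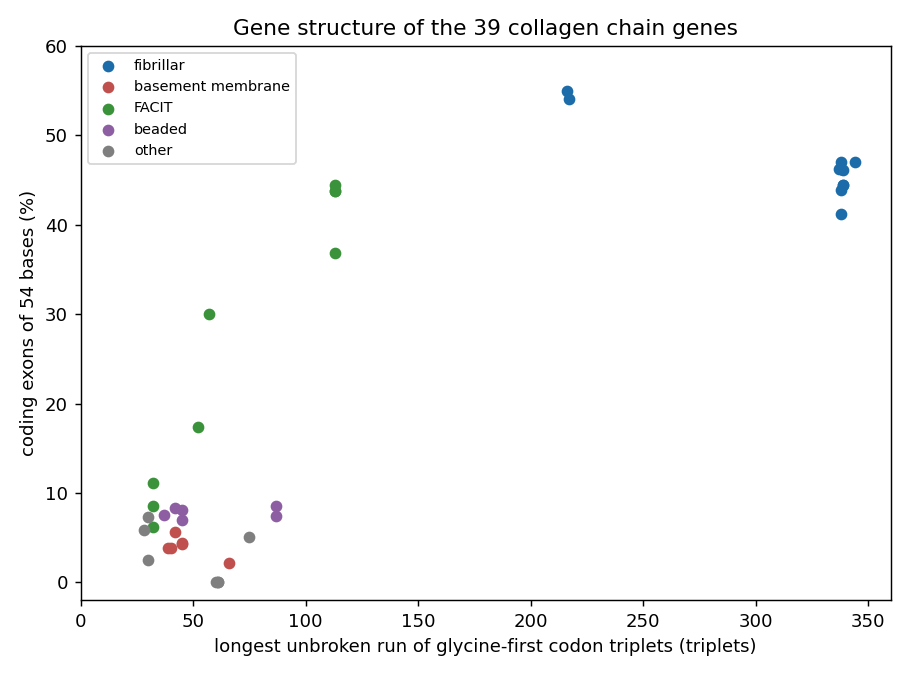
Each point is 1 of the 39 collagen chain genes; the x axis gives the longest unbroken run of triplets that open with a glycine codon, and the y axis the percentage of coding exons that are 54 bases long. Fibrillar chains sit at 216 to 344 triplets and 41.2% to 55.0%, and type IV chains at 39 to 66 triplets and 2.13% to 5.66%.

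Libraries held 14104458 to 22426537 reads in genes, and levels are given as CPM, the count relative to the gene reads of its library. Smarca4, the targeted gene, was at 231 and 251 CPM in wildtype against 239 and 282 CPM in mutant libraries, so a count over the whole gene does not check the labels. Such a count also takes in the transcript outside the floxed part and any cells outside the Cre lineage. Their part in these values was not tested. Of the markers of the labelled tissue, all 7 of cushion mesenchyme and all 6 of endocardium were present, at summed levels of 4307 to 5032 and 930.5 to 1020.3 CPM, and 6 cardiomyocyte markers summed to 19587 to 22784 CPM, so the dissected tissue also held heart muscle. Markers of smooth muscle summed to 1095 to 1245 CPM and those of epicardium to 214 to 239 CPM. Which of these cells supplied the collagen transcripts was not tested. Leukocyte markers lay higher in mutant: for all 5, both mutant libraries were above both wildtype libraries, against 17.0% of all genes. Their sums were 40.3 and 44.9 CPM in wildtype, against 92.5 and 99.4 CPM in mutant. By edgeR only Ptprc passed the test, at an adjusted p of 0.0119. The adjusted p was 0.110 for Csf1r, 0.179 for Emr1, 0.589 for Cd68 and 0.634 for Fcgr1. Of 4 hepatocyte markers, Alb and Afp also lay higher in both mutant libraries. The other hepatocyte markers, Apoa1 and Ttr, overlapped between the genotypes, at 0.308 to 0.631 and 0.528 to 1.06 CPM. Sums over the 4 were 4.85 and 4.73 CPM in wildtype, against 8.98 and 16.8 CPM in mutant. Mutant replicate 2 stood apart in sex-linked transcripts, with 13.3 CPM of Xist against 2047 to 2659 CPM in the others and 79.9 to 239 CPM of each of 4 Y-linked genes (Kdm5d, Eif2s3y, Uty, Ddx3y) against at most 1.77 CPM. In pair 2, sex and genotype therefore cannot be told apart. In such bulk tissue, fewer cells of a type and less RNA per cell cannot be told apart either.

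Together the 39 chains took 0.615% and 0.672% of gene reads in wildtype and 0.782% and 0.629% in mutant replicates 1 and 2. Compared per kb of exon, Col3a1, the chain of type III collagen in compliant tissues, stood highest, at a mean over the 4 libraries of 207 CPM per kb (range 182 to 222). Col4a1 followed at 87.4 (80.1 to 93.3), then Col4a2 at 68.2 (65.1 to 70.6), Col1a1 at 66.1 (42.6 to 101), Col18a1 at 63.3 (41.6 to 73.9), Col5a2 at 62.5 (56.5 to 66.5) and Col1a2 at 53.95 (46.8 to 71.7) CPM per kb. Col3a1 and Col4a1 did not overlap with their neighbours in that order except Col4a1 with Col1a1, and the ranges of the 5 that follow overlapped. With the length of the longest transcript in place of all annotated exons, Col3a1 still led at 365 CPM per kb, and Col1a2 came next at 125. At the low end, Col6a4 had 3, 2, 5 and 0 reads and Col10a1, the chain of hypertrophic cartilage, had 3, 2, 2 and 5 reads in wildtype replicates 1 and 2 and mutant replicates 1 and 2. The 0 reads of Col6a4 allow up to 0.213 CPM at that depth, counting error only.

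**Figure D2:**
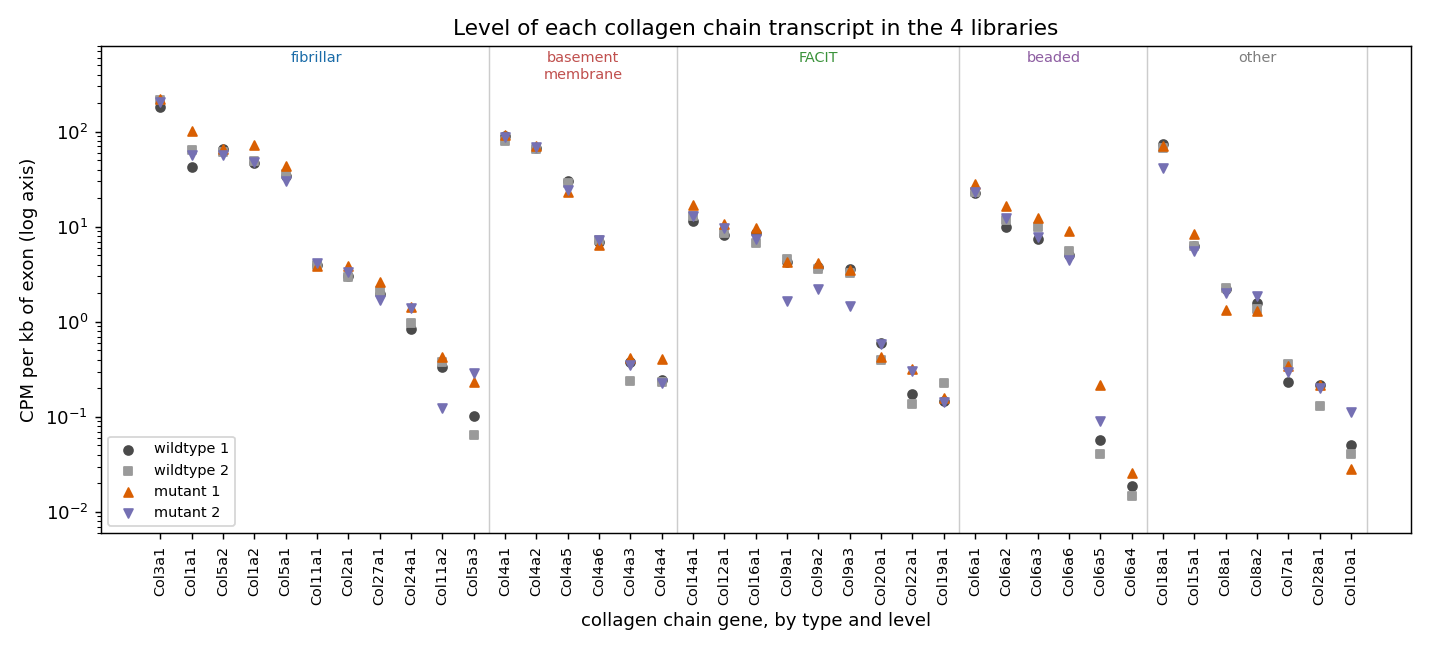
Points give CPM per kb of exon on a log axis for each of the 39 chains in the 4 libraries, ordered within each type by mean level; the 0 of Col6a4 in mutant replicate 2 is not drawn. Levels span from Col3a1 at 182 to 222 down to chains with a handful of reads. In 12 of the 37 tested chains mutant replicate 2 sits below the other 3 libraries, among them Col9a1, Col9a2, Col9a3, Col11a2 and Col18a1.

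No chain passed the test between the genotypes. Of the 37 chains that passed the low count filter, 0 were under 0.05 in adjusted p (edgeR, quasi-likelihood test), where 0.0629% of the 14316 genes tested were; the smallest adjusted p was 0.392, for Col5a3. At an unadjusted p under 0.05, 6 chains were higher in mutant, where 3.88% of all genes were, and 1 was lower, where 1.90% were. Of those 6, Col6a5 was over the filter minimum in the mutant libraries alone, so it had to lie higher there, and Col5a3 was over it in 1 wildtype library and both mutant libraries. With the replicate number as a block 0 members passed (0.887% of all genes did), as by DESeq2 (0.426%) and limma-voom (0.0489%). Of the 39 chains, 28 had a row in the authors' deposited table, and 0 of these were past an adjusted p of 0.05, where 0.374% of its rows were. Both mutant libraries lay above both wildtype libraries in 9 of the 37 chains, against 17.0% of all genes, and below them in 2, against 16.3%. Col6a5 and Col5a3 are among the 9. The median log2 fold change was 0.11 over the 37 chains and -0.00 over all genes.

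**Figure D3:**
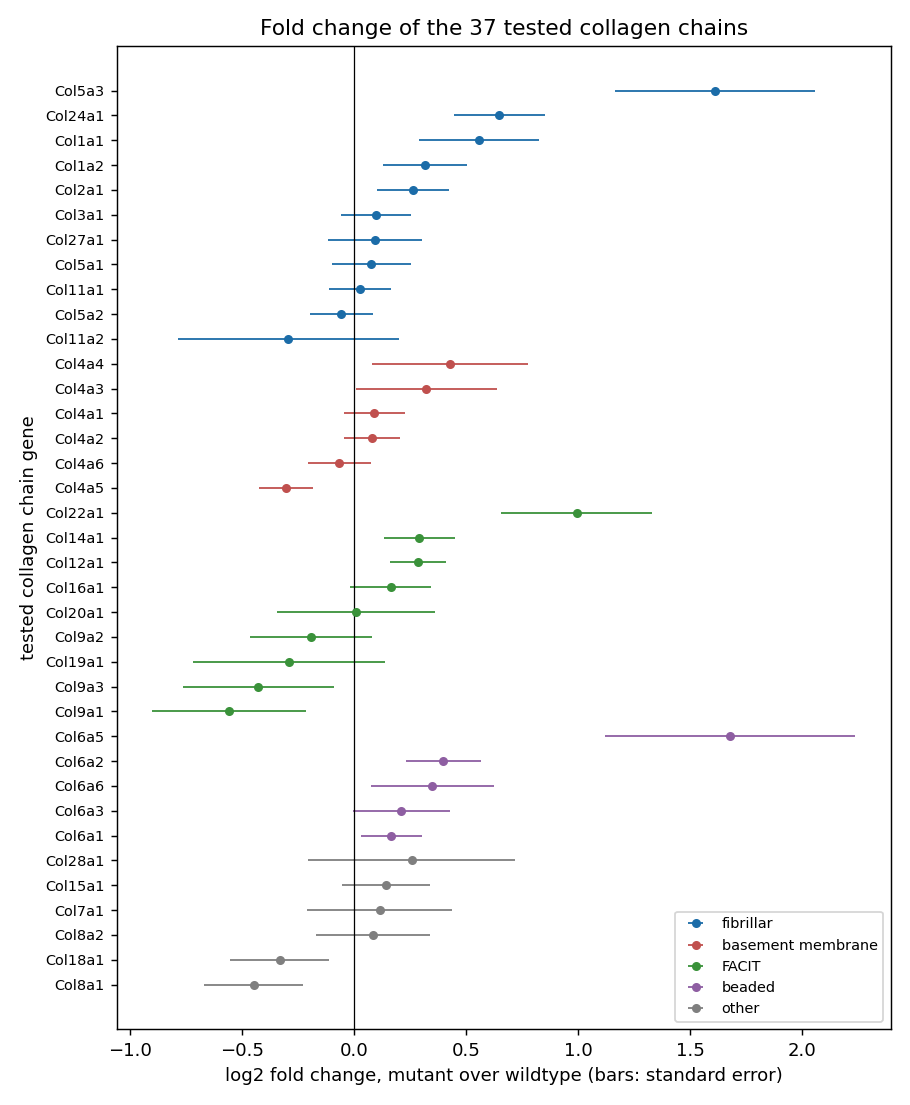
Points give the log2 fold change, mutant over wildtype, of the 37 tested chains, with the standard error as bars, in colour by type. Col6a5 at 1.68 and Col5a3 at 1.61 lie farthest right, Col9a1 at -0.56 farthest left, and 0 chains passed at an adjusted p of 0.05.

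The mutant libraries lay apart from each other: mutant replicate 2 was below mutant replicate 1 in 30 of 37 chains, against 50.4% of all genes. Mutant replicate 1 was the highest of the 4 libraries in 23 of 37 chains, against 29.6% of all genes, and mutant replicate 2 the lowest in 12, against 22.5%. When each mutant was set against the wildtype library of the same number, 15 chains were higher in pair 1 and lower in pair 2, against 25.5% of all genes, and 4 were the other way round. The calls followed the library that was left in. Without mutant replicate 2, the chains Col1a1, Col1a2, Col6a2, Col6a5 and Col6a6 were called higher and Col8a1 lower, 6 in all, where 3.0% of all genes were called. Without mutant replicate 1, the chains Col9a1, Col9a3 and Col18a1 were called lower, where 1.24% of all genes were called. In each of these fits a lone mutant library is assumed to vary like the wildtype pair. Without wildtype replicate 1 or wildtype replicate 2, 0 chains were called, where 0.0411% and 0.0203% of all genes were.

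**Figure D4:**
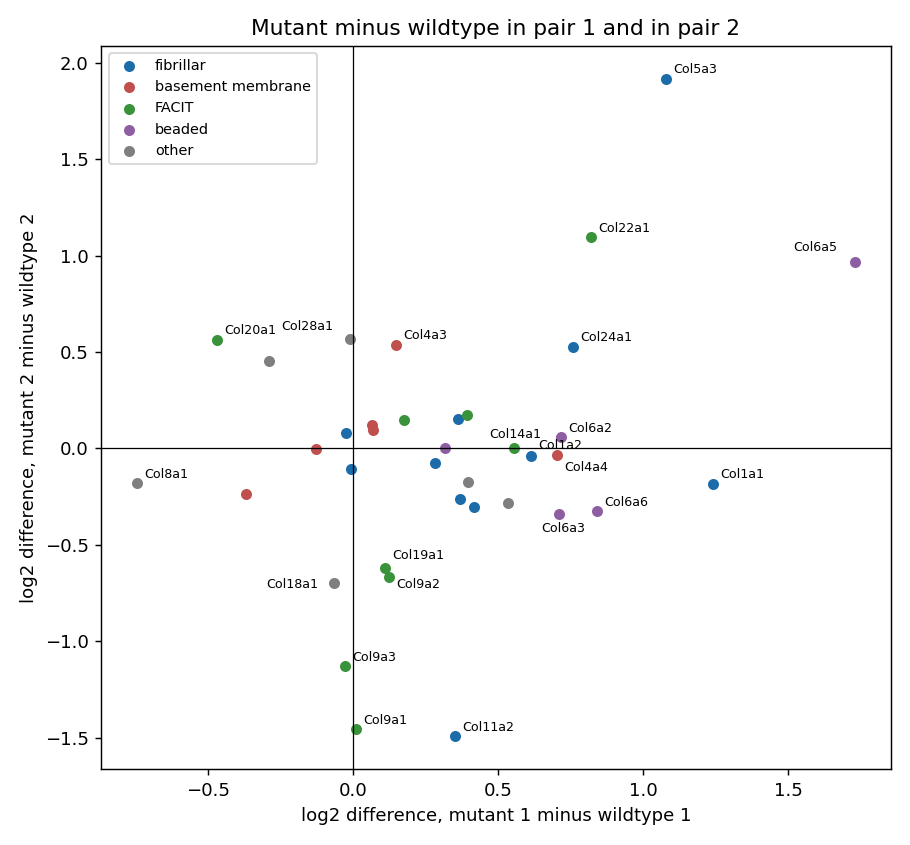
Each point is 1 tested chain; the x axis gives log2 CPM of mutant replicate 1 minus wildtype replicate 1, the y axis mutant replicate 2 minus wildtype replicate 2. Col5a3, Col6a5, Col22a1 and Col24a1 lie above 0 in both pairs, Col1a1 at 1.24 in pair 1 and -0.18 in pair 2, and Col9a1 at 0.01 in pair 1 and -1.45 in pair 2.

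Among fibrillar chains, 2 of 11, Col24a1 and Col5a3, were higher at an unadjusted p under 0.05 (3.88% of all genes were), the latter passing the filter only with the help of its mutant libraries, and the median log2 fold change was 0.10, with 0.37 in pair 1 and -0.08 in pair 2. Col3a1 (chromosome 1, 45311538 to 45349706) measured 1790.5 and 2138 CPM in wildtype, against 2178 and 2026 CPM in mutant replicates 1 and 2. The genotypes overlapped, and its log2 fold change was 0.10 ± 0.16 (SE; adjusted p = 0.982). Col1a1, which with Col1a2 forms type I collagen, the main collagen of tension-bearing tissue (chromosome 11, 94936224 to 94953042), measured 279.6 and 422.8 CPM in wildtype, against 660.6 and 372.6 CPM in mutant. Only mutant replicate 1 lay above both wildtype libraries, and the log2 fold change was 0.56 ± 0.27 (edgeR adjusted p = 0.891). Its unadjusted p was 0.0672, or 0.0336 with the replicate block. The log2 fold change was 0.92 without mutant replicate 2 (edgeR adjusted p = 6.58e-06). Without the low count filter the adjusted p was 0.0164, and Col1a1 was the 1 chain called in that fit, where 1.18% of all genes were. Col1a2 (chromosome 6, 4504814 to 4541544) measured 582 and 613 CPM in wildtype, against 891 and 596 CPM in mutant, the same library again standing alone; its log2 fold change was 0.32 ± 0.19, and 0.58 without mutant replicate 2 (edgeR adjusted p = 0.0179). The type I chains did not keep a fixed ratio. The level of Col1a1 per kb of exon was 0.91 and 1.31 times that of Col1a2 in wildtype and 1.40 and 1.18 times in mutant. With the length of the longest transcript it was 0.43 and 0.62 times in wildtype and 0.67 and 0.56 times in mutant. Except in wildtype replicate 1, which chain stood higher depended on the length used. Within wildtype alone the ratio thus differed between the libraries by more than it did between the mutant libraries.

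Col5a3 and Col24a1, both of low level, had the smallest p among fibrillar chains. Col5a3, the rarest chain of type V collagen (chromosome 9, 20770050 to 20815067), had 13 and 7 reads in wildtype and 36 and 28 in mutant, which is 0.692 and 0.442 against 1.58 and 1.98 CPM. The genotypes did not overlap, and the log2 fold change was 1.61 ± 0.45, with an unadjusted p of 0.00565 and an adjusted p of 0.392 by edgeR. Col5a3 passed the filter only with the help of its mutant libraries, so these values are a description and no support. Col24a1, a fibrillar chain known from developing bone and cornea (chromosome 3, 145292472 to 145552011), measured 6.39 and 7.32 CPM in wildtype, against 10.9 and 10.6 CPM in mutant, again without overlap; the log2 fold change was 0.65 ± 0.20 (edgeR adjusted p = 0.522). It was similar in both pairs, at 0.76 and 0.53. Markers of bone were near the counting limit, with a sum over Runx2, Sp7, Ibsp and Bglap of 1.01 to 1.45 CPM over the 4 libraries. Runx2, with 11 to 24 reads, measured 0.692 and 0.694 CPM in wildtype, against 1.06 and 1.13 CPM in mutant. Its log2 fold change was 0.65 ± 0.44 (edgeR adjusted p = 0.954). The other bone markers, with 0 to 7 reads, were too low to test.

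The major type V chains, which nucleate type I and III fibrils and limit their width, had small log2 fold changes. For Col5a1 the mutant libraries lay on opposite sides of wildtype. Col5a1 measured 287 and 306 CPM in wildtype, against 370 and 255 CPM in mutant (log2 fold change 0.08 ± 0.18), and Col5a2 measured 638 and 585 CPM in wildtype, against 634 and 542 CPM in mutant (-0.06 ± 0.14). Col5a2 lies tail to tail with Col3a1 on chromosome 1, at 45374321 to 45503282 on the minus strand. Col27a1, a fibrillar chain of cartilage and developing tissues, was at 25.3 and 27.6 CPM in wildtype, against 33.9 and 22.3 CPM in mutant (0.09 ± 0.21). For none of these did the mutant libraries lie on one side of the wildtype libraries.

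The chains known from cartilage divided. Col2a1, the main fibrillar chain of cartilage, measured 28.2 and 27.7 CPM in wildtype, against 36.2 and 30.8 CPM in mutant (log2 fold change 0.26 ± 0.16, edgeR adjusted p = 0.952), and Col11a1, which co-assembles with it, 50.5 and 50.4 against 49.7 and 53.2 CPM. Their partner Col11a2, by contrast, had 43 and 41 reads in wildtype, 67 in mutant replicate 1 and 12 in mutant replicate 2 (log2 fold change -0.29 ± 0.49). The level of Col11a1 per kb was 11.9 and 10.5 times that of Col11a2 in wildtype, 9.09 times in mutant replicate 1 and 33.8 times in mutant replicate 2. With the length of the longest transcript it was 17.4, 15.4, 13.3 and 49.5 times in the same order.

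Among the type IV chains of basement membranes, the abundant pair Col4a1 and Col4a2 lay close together across the 4 libraries. Of 6 chains 0 were higher and 1 was lower at an unadjusted p under 0.05 (1.90% of all genes were), and the median log2 fold change was 0.09, with 0.07 in pair 1 and 0.05 in pair 2. Col4a1 and Col4a2, the chains of nearly all basement membranes, are read in opposite directions from starts that overlap on chromosome 8. On RefSeq's GRCm38.p6 starts, the 22 bases of chr8:11312805-11312826, plus strand, run from the start of Col4a2 to that of Col4a1 and are shown because both genes begin on them.
Start overlap: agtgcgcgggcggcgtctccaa
Col4a1 measured 666 and 598 CPM in wildtype, against 697 and 650 CPM in mutant (log2 fold change 0.09 ± 0.14), and Col4a2 measured 446 and 431 against 467 and 461 CPM (0.08 ± 0.13). Both mutant libraries lay just above both wildtype libraries for Col4a2, by less than the spread that the test allows (edgeR adjusted p = 0.980). Per kb, Col4a1 stood at 1.32 and 1.23 times the level of Col4a2 in wildtype and at 1.32 and 1.25 times in mutant, the narrowest range of the 13 ratios between chains computed.

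Col4a5 and Col4a6, which also lie head to head, on the X chromosome with starts 1309 bases apart, had a wider ratio. Col4a5 (141475385 to 141689234) measured 202 and 195 CPM in wildtype, against 156 and 166 CPM in mutant. Both mutant libraries lay below both wildtype libraries, and the log2 fold change was -0.30 ± 0.12, with an unadjusted p of 0.0337 and an adjusted p of 0.788 by edgeR. With the replicate block the unadjusted p was 0.0767. The difference was -0.37 in pair 1, whose libraries were alike in sex-linked transcripts, and -0.23 in pair 2. Col4a6 measured 55.8 and 57.6 CPM in wildtype, against 50.97 and 57.6 CPM in mutant (-0.06 ± 0.14). Per kb, Col4a5 stood at 4.30 and 4.01 times the level of Col4a6 in wildtype and at 3.63 and 3.42 times in mutant. Col4a3 and Col4a4, the pair known from kidney glomerulus and cochlea, were at 2.40 to 4.31 CPM in all libraries, and their genotypes overlapped; 5.65% of the exon bases of Col4a3 also lie in a transcript on the other strand, which cannot be told apart without a known strand setting.

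FACIT chains did not share a direction. Of 9 chains 2 were higher at an unadjusted p under 0.05 (3.88% of all genes were), and the median log2 fold change was 0.01. Col12a1, which binds type I fibrils in tendon, ligament and valves (chromosome 9, 79598991 to 79718831), measured 124 and 131 CPM in wildtype, against 163 and 148 CPM in mutant. The genotypes did not overlap, and the log2 fold change was 0.29 ± 0.12 (unadjusted p = 0.0475, adjusted p = 0.854, edgeR). With the replicate block its unadjusted p was 0.0971. Col14a1, its close relative, measured 81.3 and 90.6 CPM in wildtype, against 119 and 90.6 CPM in mutant, so that only mutant replicate 1 stood out (0.29 ± 0.16). Col22a1, a chain of tissue junctions such as that of muscle and tendon (chromosome 15, 71795795 to 72034227), had 30 and 20 reads in wildtype and 66 and 40 in mutant, or 1.60 and 1.26 against 2.90 and 2.82 CPM. The log2 fold change was 0.99 ± 0.34, similar in pair 1 at 0.82 and in pair 2 at 1.10, with an adjusted p of 0.619 by edgeR. Markers of tendon summed to 8.04 and 5.68 CPM in wildtype, against 6.73 and 3.25 CPM in mutant, with Tnmd at 0 to 0.141 CPM.

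The 3 chains of type IX collagen, which coat type II fibrils, were low in a single library. Col9a1 (chromosome 1, 24177610 to 24252684) measured 21.4 and 23.4 CPM in wildtype, 21.5 CPM in mutant replicate 1 and 8.47 CPM in mutant replicate 2. Col9a2 measured 11.7 and 11.04 CPM in wildtype, against 12.7 and 6.92 CPM in mutant, and Col9a3 measured 13.95 and 12.5 CPM in wildtype, against 13.7 and 5.65 CPM in mutant. In all 3 chains mutant replicate 2 was lowest and mutant replicate 1 was close to the wildtype libraries. Their log2 fold changes were -0.56 ± 0.34, -0.19 ± 0.27 and -0.43 ± 0.34, and the adjusted p for Col9a1 was 0.952 by edgeR. With the replicate block the unadjusted p was 0.0146 for Col9a1 and 0.0479 for Col9a3, and the adjusted p 0.467 and 0.789. Without mutant replicate 1, Col9a1 was at -1.40 (edgeR adjusted p = 3.16e-06) and Col9a3 at -1.23 (0.00320). The authors' deposited table has Col9a1 at a log2 fold change of -0.69 with an adjusted p of 0.533, the smallest among its collagen rows. Of the exon bases of Col9a3, 6.07% lie in Tcfl5 on the other strand.

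Other genes known from cartilage showed part of that pattern. Acan, the aggrecan core protein, measured 8.36 and 10.5 CPM in wildtype, 16.4 CPM in mutant replicate 1 and 4.31 CPM in mutant replicate 2, and Sox5, a factor that activates type II collagen genes, 25.7, 29.5, 29.1 and 17.4 CPM in the same order. Hapln1, the link protein of hyaluronan, measured 110 and 151 CPM in wildtype, against 148 and 114 CPM in mutant. The defining cartilage markers Matn1 and Comp were near the counting limit, with 0 to 3 and 6 to 16 reads. Matn3 was near it too, with 3 to 10 reads, and was highest in mutant replicate 2. Lect1 was lower in both mutant libraries, at 1.49 and 2.59 CPM in wildtype, against 1.10 and 1.06 CPM in mutant. The sum of the 7 cartilage markers with a row was 147 and 194 CPM in wildtype, against 195.5 and 138 CPM in mutant. Cushion mesenchyme markers were also lowest in mutant replicate 2 for 6 of 7 genes, against 22.5% of all genes. Sox9 measured 40.4 and 48.2 CPM in wildtype, against 58.7 and 36.4 CPM in mutant. The gap was small for Postn, at 1499 CPM in mutant replicate 2 against 1557 to 1727 CPM in the others. It was wide for Msx1, at 1.77 against 4.71 to 5.27 CPM. The part of these markers in the type IX values was not tested.

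**Figure D5:**
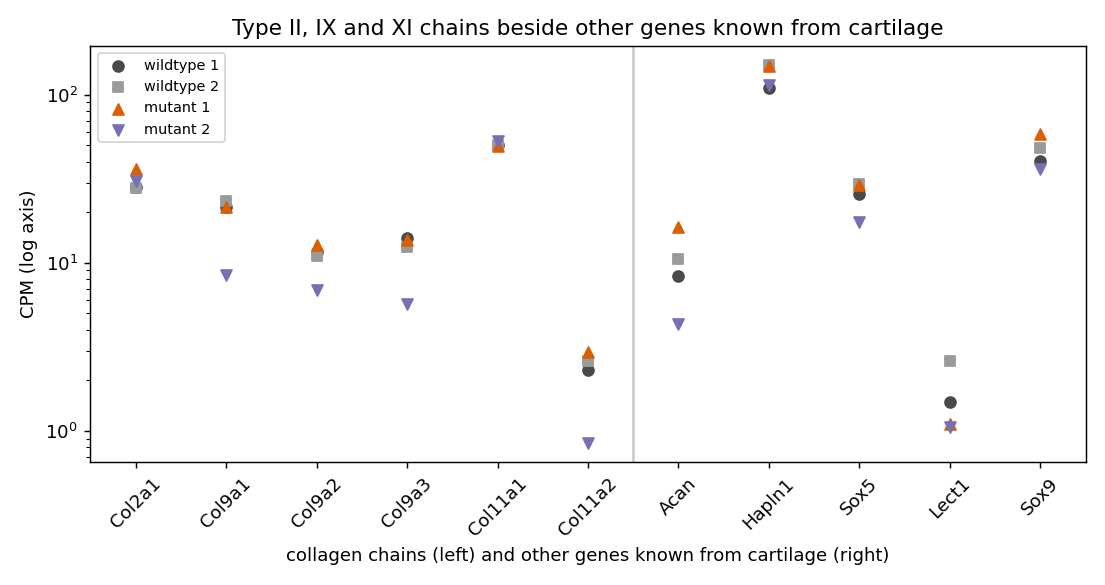
CPM on a log axis in the 4 libraries for 6 collagen chains and 5 other genes known from cartilage. In Col9a1, Col9a2, Col9a3, Col11a2, Acan, Sox5, Sox9 and, narrowly, Lect1, mutant replicate 2 lies below the other 3 libraries. Col2a1 and Col11a1 lie at 27.7 to 36.2 and 49.7 to 53.2 CPM.

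The remaining FACIT chains were Col16a1, at 58.2 and 45.8 CPM in wildtype, against 65.7 and 50.6 CPM in mutant (0.16 ± 0.18), and Col19a1 and Col20a1, at 0.989 to 3.09 CPM. For these 3 chains the genotypes overlapped.

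Beaded type VI chains had a median log2 fold change of 0.35 over the 5 tested, with 0.72 in pair 1 and 0.00 in pair 2. At an unadjusted p under 0.05, 2 of the 5 were higher, Col6a2 and Col6a5 (3.88% of all genes were), and mutant replicate 1 was the highest library in all 5 (29.6% of all genes). Col6a5 entered these figures only through its mutant libraries, which the filter selected, so they are a description and no support. Col6a1, Col6a2 and Col6a3 together form the common type VI heterotrimer. Col6a1 (chromosome 10, 76708792 to 76726168) measured 100.2 and 102.8 CPM in wildtype, against 124.8 and 102.97 CPM in mutant (0.17 ± 0.14). Col6a2 (chromosome 10, 76595762 to 76623630) measured 83.7 and 98.7 CPM in wildtype, against 138 and 103 CPM in mutant. Its genotypes did not overlap, and the log2 fold change was 0.40 ± 0.17 (unadjusted p = 0.0391, adjusted p = 0.819, edgeR), or 0.60 without mutant replicate 2 (edgeR adjusted p = 0.0162). Col6a3 measured 89.997 and 118 CPM in wildtype, against 147 and 93.7 CPM in mutant (0.21 ± 0.21). Per kb, Col6a1 stood at 2.27 and 1.98 times the level of Col6a2 in wildtype and at 1.72 and 1.91 times in mutant. With the length of the longest transcript, it stood at 1.43 and 1.25 times in wildtype and at 1.09 and 1.20 times in mutant.

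The other type VI chains can take the place of Col6a3 in the trimer and lie next to one another on chromosome 9. Col6a6 measured 46.0 and 51.1 CPM in wildtype, against 82.4 and 40.7 CPM in mutant, so the mutant libraries lay on opposite sides of wildtype (0.35 ± 0.27); without mutant replicate 2 it was at 0.77 (edgeR adjusted p = 0.00119). Col6a5 had 10 and 6 reads in wildtype and 46 and 12 in mutant, or 0.533 and 0.379 against 2.02 and 0.847 CPM. Its log2 fold change was 1.68 ± 0.56 (unadjusted p = 0.0144, adjusted p = 0.593, edgeR), and 2.13 without mutant replicate 2 (edgeR adjusted p = 0.0347). Both values are a description, since 0 wildtype libraries and 2 mutant libraries were over the filter minimum. Col6a4, Col6a5 and Col6a6 are related in sequence, and how reads shared between them were assigned is not given in the sources used here.

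Among the other chains 0 of the 6 tested had an unadjusted p under 0.05, and the median log2 fold change was 0.10, with -0.04 in pair 1 and -0.18 in pair 2. Col18a1, the multiplexin of vascular basement membranes whose end fragment is endostatin (chromosome 10, 77052178 to 77166548), measured 519 and 472 CPM in wildtype, 496 CPM in mutant replicate 1 and 292 CPM in mutant replicate 2. As with type IX chains, one library stood apart; the log2 fold change was -0.33 ± 0.22 (edgeR adjusted p = 0.954), -0.77 without mutant replicate 1 (edgeR adjusted p = 0.00196) and 0.01 without mutant replicate 2. Its relative Col15a1 measured 40.3 and 40.1 CPM in wildtype, against 53.0 and 35.6 CPM in mutant (0.14 ± 0.20). The 6 endocardium markers did not share that pattern: in mutant replicate 2, Nfatc1 (34.5 CPM against 44.3 to 55.2) and Cdh5 (232 against 237 to 249) were lowest, and Tek (302 against 254 to 274) and Emcn (63.1 against 36.8 to 51.5) highest. Pecam1 was at 172 and 173 CPM in wildtype, against 201 and 199 CPM in mutant, and Npr3, a natriuretic peptide receptor, at 243 and 229 CPM in wildtype, against 124 and 132 CPM in mutant (edgeR adjusted p = 0.0654, or 0.00646 with the block). Their part in the Col18a1 values was not tested.

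Col8a1, a short network-forming chain of vessels and endothelium (chromosome 16, 57624258 to 57754737), measured 17.4 and 17.9 CPM in wildtype, against 10.3 and 15.7 CPM in mutant, both mutant libraries below both wildtype libraries. Its log2 fold change was -0.45 ± 0.22 (edgeR adjusted p = 0.899; unadjusted p = 0.0725, or 0.0410 with the replicate block), and -0.76 without mutant replicate 2 (edgeR adjusted p = 0.0429). Its partner Col8a2 measured 7.08 and 6.06 CPM in wildtype, against 5.77 and 8.33 CPM in mutant. Per kb, Col8a1 stood at 1.41 and 1.69 times the level of Col8a2 in wildtype and at 1.03 and 1.08 times in mutant. With the length of the longest transcript, it stood at 2.09 and 2.50 times in wildtype and at 1.52 and 1.60 times in mutant. The ratio did not overlap between the genotypes. The same held for the ratios of Col4a5 to Col4a6, Col6a1 to Col6a2, Col9a1 and Col9a3 to Col9a2, and Col2a1 to Col9a1. It held narrowly for Col6a3 to Col6a2, at 1.075 and 1.200 in reads in wildtype, against 1.070 and 0.913 in mutant. The other ratios computed overlapped: Col1a1 to Col1a2 and to Col3a1, Col4a1 to Col4a2, Col5a1 and Col3a1 to Col5a2, and Col11a1 to Col11a2. Several ratios share a chain, and no share over other gene pairs was computed, so these are a description. Col7a1, the anchoring fibril chain of epithelia, and Col28a1 were at 0.631 to 3.72 CPM with overlapping genotypes.

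Genes that make, cut, crosslink or bind collagen also had 0 members past an adjusted p of 0.05. Of 21 genes for modification and folding in the endoplasmic reticulum, 1 was higher at an unadjusted p under 0.05, against 3.88% of all genes, and in 13 both mutant libraries lay above both wildtype libraries, against 17.0% of all genes; the median log2 fold change was 0.17, with 0.17 in pair 1 and 0.08 in pair 2. The 1 was P4ha2, a prolyl 4-hydroxylase subunit that stabilises the helix, at 22.0 and 22.8 CPM in wildtype, against 34.7 and 31.2 CPM in mutant (0.56 ± 0.16, edgeR adjusted p = 0.427). Serpinh1, the collagen chaperone HSP47, measured 519.9 and 472 CPM in wildtype, against 513 and 503.8 CPM in mutant (0.04 ± 0.13). Of 14 genes for processing and crosslinking 12 could be tested, with a median of 0.17 and 1 higher, Adamts2, the enzyme that removes the amino-terminal propeptide of fibrillar chains, at 15.4 and 19.6 CPM in wildtype, against 30.7 and 20.4 CPM in mutant (0.55 ± 0.23, edgeR adjusted p = 0.810).

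Of 10 collagen receptors 9 could be tested, with a median of 0.15 and 2 higher at an unadjusted p under 0.05 (3.88% of all genes were). Itga11, the integrin subunit with which fibroblasts bind type I collagen, measured 3.78 and 2.78 CPM in wildtype, against 7.88 and 3.81 CPM in mutant (0.85 ± 0.36, edgeR adjusted p = 0.837). Lair1, a collagen receptor of leukocytes, measured 1.49 and 2.02 CPM in wildtype, against 2.77 and 4.45 CPM in mutant (1.03 ± 0.36, edgeR adjusted p = 0.672). Leukocyte markers were higher in the same libraries, as given above, and their part in the Lair1 value was not tested. The 15 laminins and other basement membrane partners of type IV collagen had 0 members under an unadjusted p of 0.05 and a median of 0.10. Their members of highest level per kb of exon were Lamc1, at 641 and 638 CPM in wildtype, against 823 and 706 CPM in mutant (0.26 ± 0.14), and Nid1, at 406 and 449 CPM in wildtype, against 454 and 396 CPM in mutant (-0.01 ± 0.14).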

How the data were processed

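Per the submitters' processing notes, reads were handled with Bowtie2, TopHat2, SAMtools, HTSeq and edgeR on mm10; no version, annotation or strand setting is given in the sources used here. Counting without strand mixes overlapping genes. The authors deposited raw counts per gene symbol. Tallies outside genes, 69.0% to 70.7% of all tallied reads, stayed out of library sizes and tests. A second deposited table, the edgeR comparison run by the authors, holds log2 fold changes (wildtype over mutant, turned round here), log2 CPM, a likelihood ratio score, p-values and, for some rows, a fold change ratio.

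Counts were tested here with edgeR 4.0.16 under R 4.3.3 (TMM scaling, filterByExpr, quasi-likelihood F test, Benjamini-Hochberg adjustment over all 14316 genes tested, threshold 0.05). The filter asks for 0.571 CPM in 2 libraries. CPM used TMM-scaled library sizes; pair differences used log2 CPM with a prior count of 2. The SE is the size of the fold change over the root of its F. Alternatives used limma 3.58.1 and DESeq2 1.42.0; the fit was tested on simulated data. Lengths, exons and positions came from GENCODE M21 on GRCm38 (mm10), matched by symbol. Ratios between chains per kb used all annotated exons, and their size shifts with the length chosen. Promoter windows of RefSeq (GRCm38.p6) matched 31 of 39 members.

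The series text describes pairs of mutants and littermates, and same-numbered libraries deviated together weakly (correlation 0.144 across genes). Replicate 1 was also the deeper library in each genotype, and the part of depth in that correlation was not tested. Following the series text, the numbers were read as pairs. The block changed no call at an adjusted p of 0.05 for a member. At an unadjusted p under 0.05 it lost Col4a5 and Col12a1 and gained Col1a1, Col8a1, Col9a1 and Col9a3. Members and lists were chosen with earlier results of these data known. Members described in full had an unadjusted p under 0.05, an adjusted p under 0.05 with the block, or 1 of the 2 highest levels per kb in their type; Col1a2, Col6a6, Col8a1, Col9a1 to Col9a3, Col11a2, Serpinh1 and other genes were added after their values were seen. Col26a1 had no row by that symbol, and of the marker genes Snorc had none.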

Additional observations from a re-analysis of the deposited data

How the results depend on the processing

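The count of chains past an adjusted p of 0.05 was 0 in the main test and with the replicate block, scaling by RLE or upper quartile, the stricter filter, DESeq2, limma-voom and a threshold of 0.10; it was 1 without a low count filter, and ranged from 0 to 6 when 1 library was left out. Chains higher at an unadjusted p under 0.05 numbered 6, also with the replicate block, or 8 without a low count filter, 3 with a filter of CPM over 5 in 2 libraries, 4 by DESeq2, 5 by limma-voom, and 2 to 14 with 1 library left out. Chains lower numbered 1, or 3 with the replicate block, 5 without a filter and 2 by limma-voom, and 0 to 5 with 1 library left out. The median log2 fold change of type IV chains, 0.087, was 0.105 with upper-quartile scaling and 0.0158 with the stricter filter, which leaves fewer chains, and 0.0295 to 0.143 with 1 library left out. That of other chains, 0.1003, was -0.115 with the stricter filter and -0.0842 to 0.111 with 1 library left out, and that of FACIT chains, 0.011, ranged from -0.0408 to 0.219. Fibrillar medians ranged from 0.0372 to 0.363 and beaded medians from 0.0195 to 0.599 with 1 library left out, without a change of sign. Of 162 comparisons of 15 chains with their main value, 154 kept direction and call, 5 gained a call and 3 changed sign: Col3a1 was at -0.0207 without wildtype replicate 1 and up to 0.229 with another library left out, Col15a1 between -0.178 without mutant replicate 1 and 0.404 without mutant replicate 2, and Col18a1 between -0.766 without mutant replicate 1 and 0.00581 without mutant replicate 2. The cause was not tested. The fit has 2 residual degrees of freedom, or 1 with the block, and chains with under 50 reads per library were measured with wide errors.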
